A study of Homo sapiens with 6 samples.

Results

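The genes described here are the core kinase cascade of the Hippo pathway and the angiomotin scaffolds. All 10 were chosen by name from the deposited table: the kinases STK3 and STK4, their scaffold SAV1, the kinases LATS1 and LATS2 with their activator MOB1A, the upstream kinase TAOK1, and the angiomotins AMOT, AMOTL1 and AMOTL2. Each name matched 1 row of the 58884 genes listed. RNA came from HEK293FT, an established cell line derived from human embryonic kidney and carrying the SV40 large T antigen. The cells had received supernatant with secreted ISLR (3 libraries, labelled ISLR) or, as control, empty vector supernatant (3 libraries, labelled NC) for 72 h. Both groups were grown in the same serum-containing medium, and the line was the same. Nothing in the labels says that the 3 libraries per group stem from separate cultures. The p-values therefore cover the spread among these libraries alone, and that spread may be technical. The question behind the comparison was whether ISLR, a secreted stromal protein, acts on Hippo signalling.

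The Hippo pathway is a kinase cascade that restrains growth. STK3 and STK4 (also called MST2 and MST1) bind SAV1 and phosphorylate LATS1, LATS2 and MOB1A. The LATS kinases then phosphorylate the coactivators YAP and TAZ, which keeps them out of the nucleus. TAOK1 phosphorylates STK3 and STK4 from above, and the angiomotins hold YAP at junctions and actin and help to activate LATS. LATS2 and AMOTL2 are known to be transcribed under YAP and TAZ themselves, so the cascade also has a negative feedback at the mRNA level. Activity in this cascade is set by phosphorylation, which mRNA levels do not measure.

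The values are TPM, a transcript abundance corrected for gene length and library total, so that levels of different genes can be compared. TPM keeps no record of depth, and the depth of each library is unknown. The ISLR-labelled libraries held ISLR mRNA at 0, 0.02 and 0 TPM, and the NC-labelled ones held 510.32, 555.37 and 535.06 TPM. The transcript thus goes against the group names. Libraries are named by label below, and all directions given would turn with an exchange of the 2 labels. All 8 markers of the line reached 1 TPM in at least 1 library, with NEFM at 149.08 to 192.63 TPM and VIM at 1116.16 to 1259.53 TPM. PAX2 and LHX1 were low, at 0.81 to 1.5 and 1.04 to 3.3 TPM. The summed level of the 8 markers was 1544.83 to 1603.28 TPM in ISLR-labelled libraries and 1396.47 to 1422.38 TPM in NC-labelled ones, and VIM made up most of it. Of 6 stromal markers, 4 stayed under 1 TPM in every library, and the sums were 13.66 to 14.85 and 11.8 to 16.91 TPM. PTPRC reached at most 0.14 TPM and CD3E was listed at 0, while CD68, which is not confined to macrophages, gave 7.14 to 11.8 TPM. PECAM1 and CDH5 reached at most 0.08 and 0.03 TPM.

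Of the 10 genes, 6 were higher in ISLR-labelled libraries and none was lower. AMOTL1, TAOK1, SAV1, AMOTL2, LATS2 and AMOT passed the test. STK3, STK4, LATS1 and MOB1A did not. The test was limma on log2(TPM + 1) with Benjamini-Hochberg adjustment over the 13869 genes that reached 1 TPM in 3 or more libraries, and a gene was called at an adjusted p under 0.05. On the same scale 38.5% of all tested genes were higher and 7.38% lower (45.9% in all), and the median log2 fold was 0.22 over all tested genes against 0.45 over these 10. With the libraries brought to a common scale by the median of ratios, the median of all tested genes moved to 0.0014. On that scale AMOTL1, TAOK1, SAV1 and AMOTL2 were higher, 4 of 10, and none was lower, against 18.2% and 20.4% of all tested genes. All 10 genes passed the filter on low values, which every one of them would also have passed in NC-labelled libraries alone. The groups did not overlap for 8 of the 10, all with ISLR-labelled libraries above, and for 6 after scaling, again above. Over all tested genes 46.3% were separate in that direction and 56.8% in either, and after scaling 26.1% and 52.7%. In bulk RNA, a change in every cell and a change in the share of cells that express a gene cannot be told apart.

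**Figure D1:**
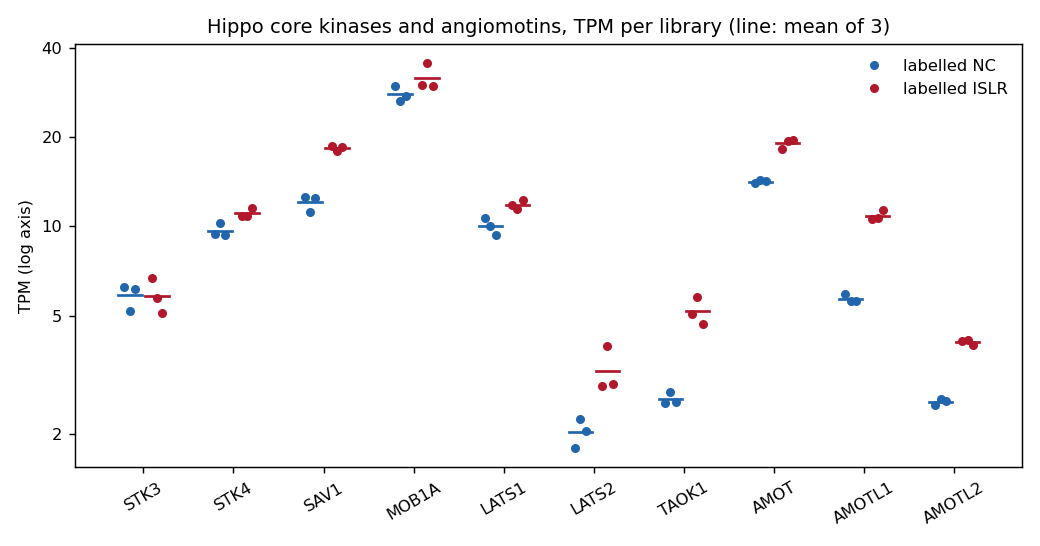
TPM of each gene (log axis) in the 3 libraries labelled NC (blue) and the 3 labelled ISLR (red); points are libraries and lines are group means. The 2 groups lie apart for SAV1, TAOK1 and the 3 angiomotins, and overlap for STK3 and MOB1A.

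In both groups MOB1A had the highest level, 31.7 ± 3.26 TPM in ISLR-labelled libraries and 27.9 ± 1.65 TPM in NC-labelled ones (mean ± SD, n = 3 each). AMOT and SAV1 came next. LATS1 and STK4 stood close together near the middle of the order, at 11.8 ± 0.441 and 11.1 ± 0.391 TPM in ISLR-labelled libraries, and their values overlapped in both groups. LATS2 was the lowest in both groups. AMOTL1 changed its place. In NC-labelled libraries it overlapped with STK3 (5.59 to 5.93 against 5.2 to 6.25 TPM). In ISLR-labelled ones it overlapped with STK4 instead (10.58 to 11.4 against 10.83 to 11.53 TPM). TAOK1 and AMOTL2 overlapped in NC-labelled libraries (2.54 to 2.76 and 2.5 to 2.62 TPM), whereas TAOK1 lay above AMOTL2 in ISLR-labelled ones (4.7 to 5.79 and 3.98 to 4.15 TPM).

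Among the kinases at the head of the cascade, STK3 showed no difference that passed the test and STK4 a small one that did not pass either. STK3 was at 6.7, 5.74 and 5.11 TPM in ISLR-labelled libraries and at 6.25, 5.2 and 6.18 TPM in NC-labelled ones. The groups overlapped, and the log2 fold was -0.0085 (95% interval -0.29 to 0.28, limma adjusted p = 0.961). After scaling it was -0.22 (-0.51 to 0.072, adjusted p = 0.201). STK4 was at 10.83, 10.88 and 11.53 TPM against 9.44, 10.25 and 9.35 TPM. Every library labelled ISLR lay above every one labelled NC, but the log2 fold of 0.18 did not pass (95% interval 0.0008 to 0.36, adjusted p = 0.0914) and was -0.049 after scaling (-0.22 to 0.13, adjusted p = 0.63). Within each library, STK3 made up 34.5 ± 3.76% of the summed TPM of the pair in ISLR-labelled libraries and 37.8 ± 3.55% in NC-labelled ones, a share that scaling between libraries cannot alter. Those ranges overlapped (exact permutation test, two-sided, p = 0.3, and 0.3 adjusted over the 3 shares tested).

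SAV1, the WW-domain scaffold that dimerises with STK3 and STK4 through their SARAH domains, was higher. It was at 18.67, 17.94 and 18.57 TPM in ISLR-labelled libraries and at 12.55, 11.21 and 12.52 TPM in NC-labelled ones. The groups lay far apart relative to their spread. The log2 fold was 0.57 (95% interval 0.40 to 0.74, limma adjusted p = 0.000952), which is 0.35 above the median of all genes, and it was 0.33 after scaling (adjusted p = 0.00843). SAV1 passed under every alternative tried, with adjusted p of 0.000129 to 0.0305. In GENCODE 29 on GRCh38 the gene lies on chromosome 14 at 50632058 to 50668331 on the minus strand. It shares 840 nt of exon with ATL1 on the other strand. ATL1 stood at 0.57 to 0.76 TPM in ISLR-labelled libraries and 0.64 to 1.02 TPM in NC-labelled ones. The sources used here do not give whether reads were counted by strand.

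TAOK1, a kinase that phosphorylates STK3 and STK4, was higher as well. It was at 5.06, 5.79 and 4.7 TPM in ISLR-labelled libraries and at 2.54, 2.76 and 2.56 TPM in NC-labelled ones. The lowest library labelled ISLR was well above the highest labelled NC. The log2 fold was 0.77 (95% interval 0.51 to 1.03, limma adjusted p = 0.00158), 0.55 above the median of all genes, and 0.57 after scaling (adjusted p = 0.00648). It passed under every alternative in which it was tested. TAOK1 occupies 29390464 to 29551904 of chromosome 17, plus strand. The antisense neighbour AC068025.1, which shares 173 nt of exon, was at 0.59 to 0.81 TPM against 0.4 to 0.73 TPM.

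At the LATS step, LATS2 was higher on the deposited scale only, while LATS1 and MOB1A did not pass. LATS2 was at 2.9, 3.96 and 2.95 TPM in ISLR-labelled libraries and at 1.79, 2.24 and 2.04 TPM in NC-labelled ones. The second library labelled ISLR stood above the other 2, and the groups did not overlap. The log2 fold was 0.49 (95% interval 0.16 to 0.82, limma adjusted p = 0.025). After scaling it was 0.31 (-0.014 to 0.64, adjusted p = 0.116). Without labelled ISLR 2, labelled NC 1 or labelled NC 3 the adjusted p was 0.0763, 0.0702 or 0.0565, and with no filter on low values 0.0545. LATS1 was at 11.82, 11.42 and 12.3 TPM against 10.68, 10.07 and 9.35 TPM. Its groups did not overlap, and its log2 fold was 0.22 (95% interval 0.035 to 0.41, adjusted p = 0.0548), close to the median of all genes. After scaling LATS1 was at -0.0078 (-0.19 to 0.18, adjusted p = 0.947). It passed with limma's trend and robust options off (adjusted p = 0.0421).

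The share of LATS2 in the LATS pair did not pass a test. Its part of the summed LATS1 and LATS2 TPM was 19.7, 25.75 and 19.34% there and 14.35, 18.2 and 17.91% in NC-labelled libraries. The ranges did not overlap, and the difference of 4.78 percentage points gave p = 0.1 (exact permutation test, two-sided, 0.15 adjusted over 3 shares), the smallest p that 3 against 3 libraries allow. Without labelled ISLR 2 the difference was 2.70 points. MOB1A, which binds LATS kinases and opens them to activation, was at 29.97, 35.49 and 29.72 TPM against 29.72, 26.49 and 27.51 TPM. The groups touched at 29.72 TPM, and the log2 fold was 0.18 (95% interval -0.022 to 0.37, limma adjusted p = 0.127), or -0.065 after scaling (-0.26 to 0.13, adjusted p = 0.563). Its pseudogenes MOB1AP1 and MOB1AP2 were listed at 0 in every library.

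All 3 angiomotins were higher as deposited, beside 38.5% of all tested genes. The same held for TAOK1, TAOK2 and TAOK3, so it was not particular to the angiomotins. AMOT was at 18.28, 19.35 and 19.6 TPM in ISLR-labelled libraries and at 13.99, 14.33 and 14.21 TPM in NC-labelled ones. AMOTL1 was at 10.58, 10.67 and 11.4 against 5.93, 5.59 and 5.59 TPM. AMOTL2 was at 4.1, 4.15 and 3.98 against 2.5, 2.62 and 2.59 TPM. None of the 3 genes had a library of one group inside the range of the other, and the spread within groups was small. Of all tested genes, 46.3% were separate with ISLR-labelled libraries above. The log2 fold of AMOTL1 was 0.83 (95% interval 0.64 to 1.01, limma adjusted p = 0.000387), the largest of the 10 genes, and 0.60 after scaling (adjusted p = 0.00105). That of AMOTL2 was 0.51 (0.28 to 0.74, adjusted p = 0.00513), and 0.32 after scaling (adjusted p = 0.0371). That of AMOT was 0.40 (0.26 to 0.55, adjusted p = 0.00207), and 0.17 after scaling (0.033 to 0.30, adjusted p = 0.0548). After scaling, the AMOTL2 call was lost whichever single library was left out (adjusted p = 0.0672 to 0.0968), with log2 folds of 0.30 to 0.35, whereas AMOTL1 kept its call without any one of the 6 (adjusted p = 0.0037 to 0.00639).

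The share of each angiomotin in the family total was compared within libraries. Summed over the 3 genes as deposited, the family stood at 32.96, 34.17 and 34.98 TPM in ISLR-labelled libraries and at 22.42, 22.54 and 22.39 TPM in NC-labelled ones. Unlike the shares, the sum depends on the scale between libraries. AMOTL1 held 32.1, 31.23 and 32.59% of that sum in ISLR-labelled libraries, and 26.45, 24.8 and 24.97% in NC-labelled ones. The 2 ranges lay 6.57 points apart on average without overlap (exact permutation test, two-sided, p = 0.1, the smallest possible, and 0.15 adjusted over 3 shares). AMOT held 56.0 ± 0.584% against 63.2 ± 0.65%, again without overlap (SD, n = 3 each). AMOTL2 held 11.99 ± 0.548% against 11.4 ± 0.258%, with overlapping ranges. The shares of AMOT and AMOTL2 were not tested.

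**Figure D2:**
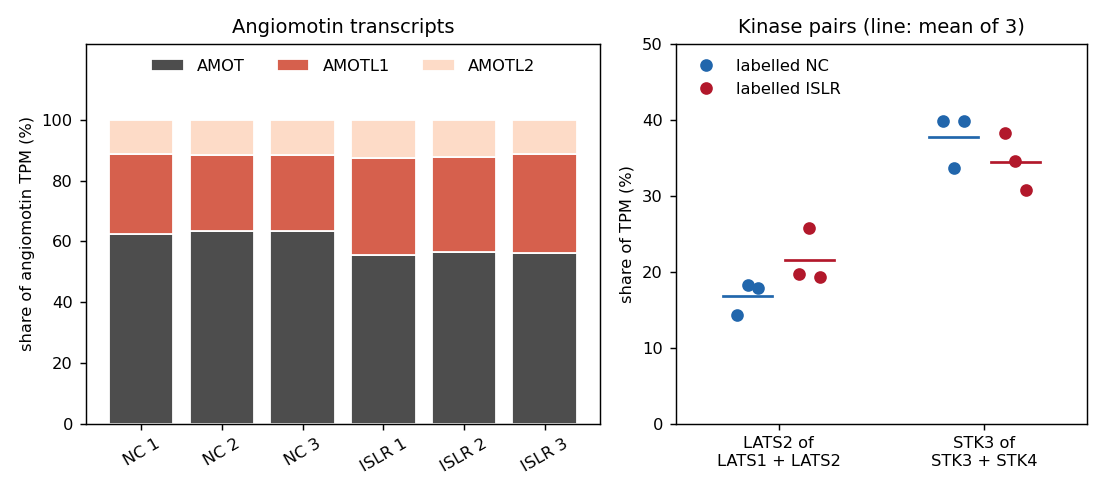
Left, share of each angiomotin in the summed TPM of AMOT, AMOTL1 and AMOTL2 (%) in each library; right, share of LATS2 in the LATS pair and of STK3 in the STK3 and STK4 pair (%), with points for libraries and lines for group means. AMOTL1 takes 31.23 to 32.59% in ISLR-labelled libraries and 24.8 to 26.45% in NC-labelled ones, the LATS2 shares do not overlap either, and the STK3 shares do.

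Promoter sequences of RefSeq on GRCh38.p14, from 250 bases before to 50 bases after an annotated start, matched 9 of the 10 genes in 13 windows; STK3 is not in that table. They were searched on both strands for GGAATG, the core letters bound by TEAD factors, the DNA-binding partners of YAP and TAZ. They were also searched for TGANTCA, a looser form of the AP-1 letters with any base in the middle. GGAATG was found in AMOTL2 and LATS2, 1 match each, and in 16.7% of all 27305 genes (14% of all 35116 windows). TGANTCA was found in LATS1, with A as the middle base, and in 9.37% of all genes (7.71% of all windows). The other window of AMOTL2 and the other window of LATS1 held neither motif. A match is a description of these letters and not a binding site. The stretches of 30 bases around the matches are shown 5′ to 3′ on the gene's strand with the matched letters in capitals, because 2 of the 3 genes are known as YAP and TAZ targets. They lie on the minus strand at chr3:134374499-134374528 (AMOTL2), chr13:21061560-21061589 (LATS2) and chr6:149718322-149718351 (LATS1). The AMOTL2 match starts at position -69 from the start site of its window and reads on the opposite strand, as CATTCC, the LATS2 match at position 10 and the LATS1 match at position -245. The AMOTL2 stretch overlaps an annotated untranslated region, and the LATS2 and LATS1 stretches do not.
AMOTL2: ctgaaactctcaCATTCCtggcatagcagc
LATS2: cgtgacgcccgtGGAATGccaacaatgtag
LATS1: aggatTGAATCAaccaagtaggctgggcgg

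The promoter window of AMOTL1, the gene with the largest difference, held neither motif. The first 236 bases of the window, at chr11:94768106-94768341 on the plus strand, are shown with CG dinucleotides in capitals. They hold 24 CG, and the whole window is 72.0% G and C, against a median of 58.7% over all windows.
AMOTL1: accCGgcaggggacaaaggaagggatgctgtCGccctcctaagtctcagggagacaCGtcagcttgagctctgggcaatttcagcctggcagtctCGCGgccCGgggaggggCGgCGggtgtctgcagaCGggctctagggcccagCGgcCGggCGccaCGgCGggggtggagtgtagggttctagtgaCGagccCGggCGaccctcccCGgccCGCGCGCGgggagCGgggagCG

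The group difference varied with length over all genes. In the deposited table the 10 genes measure 3063 (SAV1) to 12407 nt (TAOK1). Tested genes were cut into 10 classes by length. The shortest class, 81 to 1052 nt, had a median log2 fold of -0.022, and the 4 longest classes had medians of 0.28 to 0.32. All of the 10 genes but SAV1 were in those 4 classes. The 6 called genes lay above the median of their own length class, and STK3, STK4, MOB1A and LATS1 lay below it. With scaling and the trend with length removed together, AMOTL1 (0.52, limma adjusted p = 0.00241), TAOK1 (0.49, adjusted p = 0.0128) and SAV1 (0.31, adjusted p = 0.0116) were still called. AMOTL2 (0.24, adjusted p = 0.0907), LATS2 (0.22, adjusted p = 0.253) and AMOT (0.078, adjusted p = 0.326) were not. On that scale 16.4% of tested genes were higher and 20.3% lower.

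**Figure D3:**
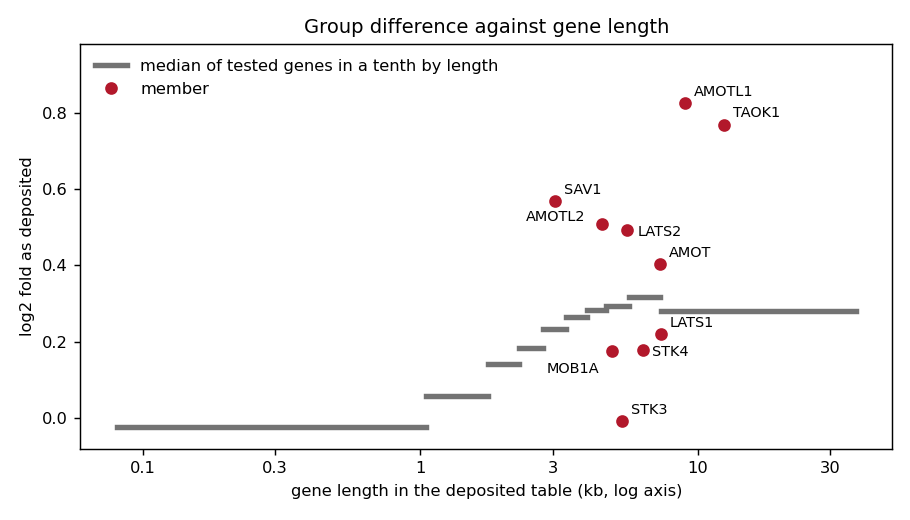
Log2 fold as deposited (labelled ISLR minus labelled NC) against gene length (kb, log axis) for the 10 genes (red points), with the median of all tested genes in each of 10 length classes (grey lines). AMOTL1, TAOK1 and SAV1 stand furthest above the grey lines, and STK3 furthest below.

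**Figure D4:**
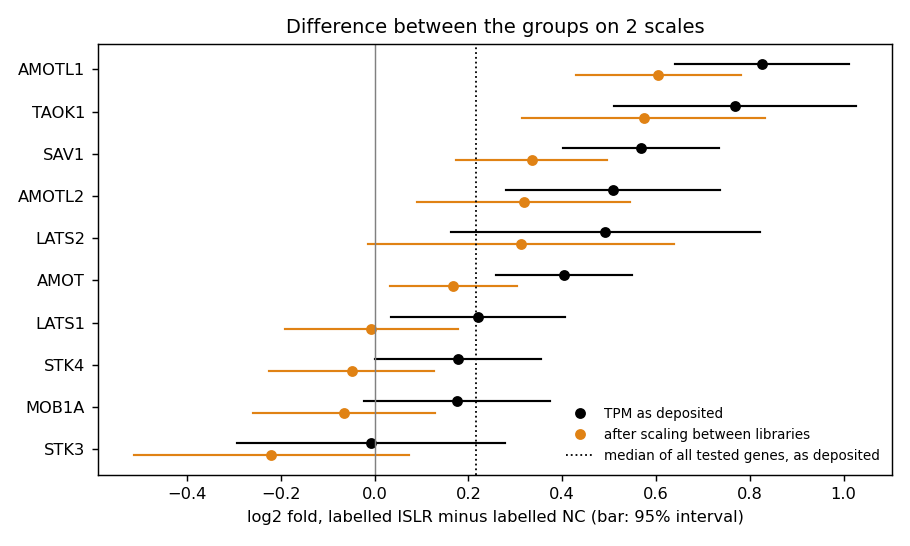
Log2 fold of each gene (labelled ISLR minus labelled NC, 3 libraries each) with its 95% interval, for TPM as deposited (black) and after median-of-ratios scaling (orange); the dotted line is the median of all tested genes as deposited, 0.22. After scaling the intervals of AMOTL1, TAOK1, SAV1, AMOTL2 and AMOT lie above 0, and those of the other genes include it.

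The authors' deposited table also gives an adjusted p per gene from a comparison by the authors, but marks none of the 10 genes as significant. In the authors' deposited table AMOTL1 (2.61e-26), TAOK1 (1.36e-21), SAV1 (0.000129) and LATS2 (0.0359) had an adjusted p under 0.05, as did 51.2% of the genes tested here. Its p-values and TPM part ways for AMOTL2 and STK3. The authors' deposited table gives AMOTL2 an adjusted p of 0.894 with mean TPM of 4.08 and 2.57, and STK3 an adjusted p of 0.00547 with mean TPM of 5.85 and 5.88. AMOT had 0.109 in the authors' deposited table. Such cases are not rare. Of 2834 genes called higher here with a log2 fold of at least 0.5, 17.9% were not under 0.05 in the authors' deposited table. Of 5959 genes not called here whose groups overlapped, 39.4% were under 0.05 in the authors' deposited table. The sources used here do not give the input of that comparison.

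Outside the 10 genes, 78 further genes of the pathway were grouped in 7 lists, and 71 of them were tested. As deposited 35 were higher and 1 lower, and after scaling 10 were higher and 9 lower, with a median log2 fold of 0.29 and 0.055. Over all tested genes 38.5% were higher and 7.38% lower as deposited, and 18.2% and 20.4% after scaling. With the length trend also removed, 5 of the 71 were higher (TAOK2, MINK1, CTTNBP2NL, TNKS2 and RNF146) and 10 lower, against 16.4% and 20.3% of all tested genes. Without labelled ISLR 3 the called genes went from 36 to 23. The 1 lower gene was DLG1, a polarity scaffold named here after its value was seen, at 5.13 ± 0.211 against 8.17 ± 2.16 TPM (limma adjusted p = 0.0323, and 0.0126 after scaling). As deposited, the DLG1 call was lost without any one of labelled ISLR 1, 2 and 3 and labelled NC 2 and 3.

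Among 12 kinases and partners related to the members, 4 were higher and none lower, and after scaling 3 were higher and 2 lower (MAP4K4 and STK38L). The shares of all tested genes to set beside this list and those below were 38.5% and 7.38%, and after scaling 18.2% and 20.4%. Both other TAO kinases were higher as deposited and after scaling, and with the length trend also removed TAOK2 was called (limma adjusted p = 0.0274) and TAOK3 was not (adjusted p = 0.0628). TAOK2 was at 34.4 ± 1.92 TPM in ISLR-labelled libraries against 23.0 ± 1.21 in NC-labelled ones (limma adjusted p = 0.000802, and 0.00803 after scaling), and TAOK3 at 3.77 ± 1.08 against 1.77 ± 0.23 TPM (adjusted p = 0.0109, and 0.04 after scaling). MINK1, a kinase of the MAP4K family that can phosphorylate LATS, was at 27.97 ± 1.24 against 17.9 ± 1.61 TPM (adjusted p = 0.00105). Of 16 tested genes of junctions and polarity, 7 were higher and 1 lower, and after scaling 2 were higher and 2 lower (DLG1 and NF2). WWC1 (KIBRA), which brings LATS to the membrane, was at 9.88 ± 1.13 against 6.16 ± 0.628 TPM (adjusted p = 0.0048), and SCRIB at 45.1 ± 1.27 against 30.2 ± 3.08 TPM (adjusted p = 0.00139). Both were called after scaling, but not with the length trend also removed (limma adjusted p = 0.0759 and 0.0515). Of 5 tested RASSF genes, whose products bind STK3 and STK4, RASSF2, RASSF3 and RASSF5 were higher as deposited, and after scaling none was higher and RASSF1 was lower (limma adjusted p = 0.00294).

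Genes of a complex that acts against the cascade, and genes that act on LATS, were measured as well. STRIPAK is a phosphatase complex that removes the activating phosphate from STK3 and STK4. Its genes were listed by membership, kinases such as STK25 included, and the action of each one on the cascade was not tested. Of 17 genes of STRIPAK and its PP2A core, 9 were higher and none lower, against 38.5% and 7.38% of all tested genes. After scaling 1 was higher and 2 were lower (PPP2R1A and PPP2CB), against 18.2% and 20.4% of all tested genes. CTTNBP2NL was the one still higher, at 3.84 ± 0.399 TPM in ISLR-labelled libraries against 1.66 ± 0.0833 in NC-labelled ones (limma adjusted p = 0.00126, and 0.00386 after scaling). STRN4 (adjusted p = 0.000908) and STK25 (adjusted p = 0.00194) were called as deposited, and not after scaling (adjusted p = 0.0582 and 0.103). Of 10 genes that inhibit LATS or mark it for degradation, 6 were higher and none lower, beside the same 38.5% and 7.38%. After scaling 2 were higher and none lower, beside 18.2% and 20.4% of all tested genes. NEDD4, a ubiquitin ligase, was at 12.2 ± 1.33 against 6.51 ± 1.73 TPM (adjusted p = 0.00629), and DCAF1, a substrate receptor of a ubiquitin ligase that acts on LATS, at 15.3 ± 0.819 against 10.6 ± 0.13 TPM (adjusted p = 0.00165). Both were also called after scaling (adjusted p = 0.0282 and 0.0288), but neither was with the length trend also removed (adjusted p = 0.0515 and 0.122). ITCH was called as deposited (adjusted p = 0.00829) and not after scaling (adjusted p = 0.0502).

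Tankyrases and the ubiquitin ligase RNF146 together send angiomotins to degradation, and USP9X removes ubiquitin from them. TNKS2 was at 13.84, 13.45 and 13.98 TPM in ISLR-labelled libraries and at 7.87, 7.57 and 8.48 TPM in NC-labelled ones (limma adjusted p = 0.000494, and 0.0021 after scaling). RNF146 was at 15.6, 14.07 and 17.82 TPM against 9.26, 9.87 and 9.92 TPM (adjusted p = 0.00182, and 0.0115 after scaling). The groups were separate for both genes. USP9X was at 28.4 ± 1.76 against 20.6 ± 1.84 TPM (adjusted p = 0.00408), and was not called after scaling (adjusted p = 0.0692). Of these 4 genes, 3 were higher as deposited, and after scaling 2 were higher and TNKS was lower (limma adjusted p = 0.0396). Of 7 effectors, TEAD1, TEAD4 and YAP1 were higher as deposited, and after scaling none was higher and WWTR1, which encodes TAZ, was lower (limma adjusted p = 0.042). For both lists the shares of all tested genes were 38.5% higher and 7.38% lower as deposited, and 18.2% and 20.4% after scaling. Genes called lower only after scaling were named after their values were seen.

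**Figure D5:**
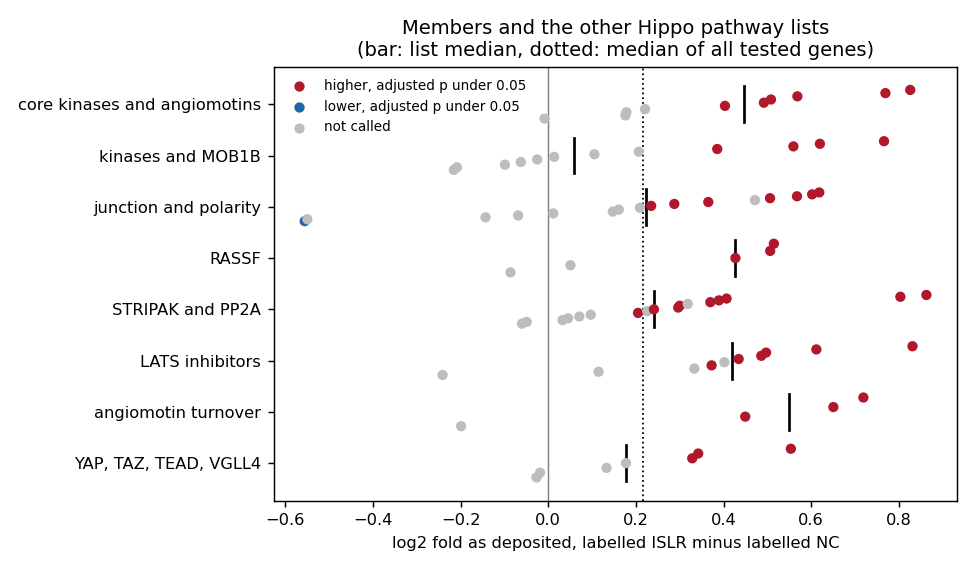
Log2 fold as deposited (labelled ISLR minus labelled NC) of each tested gene in the 10 core kinases and angiomotins and in 7 other lists of the pathway; red points were called higher, blue lower and grey not called, black bars are list medians and the dotted line is the median of all tested genes. The 10 genes have a median of 0.45, and lists range from 0.059 for related kinases to 0.55 for the 4 genes of angiomotin turnover.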

How the data were processed

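TPM per gene and library was deposited by the authors for 3 libraries labelled ISLR and 3 labelled NC, with group means, a length per gene, and p-values of the authors' own comparison. Per the submitters' processing notes, tools were HISAT2, Cufflinks and RSEM (roles and versions not stated) and the build GRCh38.p10. Library columns were matched to samples by title, and 1 blank row was left out. Listed TPM summed to 984556.67 to 987783.8 per library, so depth is unknown and no counting interval can be given.

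Genes reaching 1 TPM in 3 or more libraries entered limma 3.58.1 (R 4.3.3; group as the only term, trend and robust) on log2(TPM + 1), which understates folds of low genes. Tests were two-sided, and the code was tested on simulated data. Size factors came from tested genes above 0 in all libraries. The length trend was removed by lowess (span 0.3). Paralog shares were compared by exact permutation. Same-numbered libraries deviated from their group means with correlations of -0.0556 to 0.0468, so numbers were not taken as pairs.

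The members and lists were chosen with earlier results of these data known. All 10 members, ISLR, and up to 3 genes of smallest p per list were named. A gene that this rule names is not reported here. PALS1 was read under its older symbol MPP5. Positions are from GENCODE 29, sequences from RefSeq. Figures were drawn with matplotlib 3.10.9.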

Additional observations from a re-analysis of the deposited data

How the results depend on the processing

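AMOTL1, TAOK1 and SAV1 kept direction and call under every alternative in which they were tested. Of the 10 genes, 6 were higher as deposited, and 3 were with a filter of 5 TPM (LATS2, TAOK1 and AMOTL2 were then not tested), with quantile normalization, with scaling and the length trend removed, and with scaling and a replicate block. With the authors' adjusted p and the direction taken from mean TPM, 1 gene, STK3, counted as lower. Its means were nearly equal (5.85 and 5.88 TPM) with overlapping groups, so no direction can be read from this. As deposited, a replicate block left 6 higher. Leaving out 1 library gave 3 to 6 higher over both scales and 0 lower, and scaling with 1 library left out gave 3 in each case. Of all tested genes, 38.5% were higher as deposited, 18.2% after scaling and 16.4% with the length trend also removed.

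For the 7 other lists, 36 genes were called as deposited (35 higher, 1 lower). Scaling gave 19 (10 and 9), quantile normalization 17 (9 and 8), scaling with the length trend removed 15 (5 and 10), scaling with a replicate block 12 (8 and 4), and an adjusted p under 0.01 gave 16 (16 and 0). With no filter 0 were lower. With the authors' adjusted p 5 counted as lower, again with the direction taken from mean TPM. Without single libraries the counts were 11 to 32 called, 6 to 31 higher and 0 to 8 lower. Of all tested genes, 38.5% were higher and 7.38% lower as deposited, and 18.2% and 20.4% after scaling. With the length trend also removed the shares were 16.4% and 20.3%. Shares under quantile normalization, a block, other thresholds or a left-out library are not given here, so those counts cannot be set beside all genes. The cause of these differences between settings was not tested.

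The sign of 3 uncalled genes, but not of STK3, turned under scaling, quantile normalization, scaling with the length trend removed, and scaling with a replicate block. The log2 folds were -0.049, -0.099, -0.14 and -0.049 for STK4, -0.0078, -0.054, -0.098 and -0.0078 for LATS1, and -0.065, -0.022, -0.15 and -0.065 for MOB1A. Over both scales and each library left out, the log2 fold ranged from -0.31 to 0.071 for STK3, -0.078 to 0.22 for STK4, -0.060 to 0.26 for LATS1 and -0.13 to 0.22 for MOB1A. Share differences ranged from 6.26 to 7.09 points for AMOTL1, 2.70 to 5.90 for LATS2 and -5.33 to -1.38 for STK3. Scaling combined with a block or with a library left out was chosen after seeing the data. Depth is unknown, so counting error cannot be separated from the spread.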

Other observations

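The second library labelled ISLR was the highest of its group for LATS2 (3.96 TPM), MOB1A (35.49 TPM), TAOK1 (5.79 TPM) and, by little, AMOTL2 (4.15 TPM). It was the lowest for SAV1 (17.94 TPM) and LATS1 (11.42 TPM). FAT4, an atypical cadherin upstream of the cascade, did not pass the filter on low values, yet it was listed at 18.33 TPM in labelled NC 2, and at 0.2 and 0.23 TPM in labelled NC 1 and 3. In the libraries labelled ISLR it was at 0.45, 0.48 and 0.52 TPM. WWC3, a relative of WWC1, was at 1.42 TPM in labelled NC 1 and at most 0.88 TPM elsewhere. FAT4 and WWC3 were picked from their values.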
